A study of Callithrix jacchus with 4 samples.

Results

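Astrocytes supply the young brain with lipoprotein particles and with secreted proteins that act on forming synapses, and 9 genes of these functions were followed here in newborn marmoset brain. They were chosen by symbol, with earlier results of these data known. CLU, APOE, ABCA1 and ABCG1 encode the protein and lipid-export parts of glial lipoproteins. SPARC, SPARCL1, THBS1, GPC4 and CHRDL1 encode secreted or surface-shed proteins of the extracellular matrix and synapse. All 9 have a row among the 35205 genes of the count table, and all 9 passed the filter on low counts that left 16956 genes for testing. The animals were common marmosets (Callithrix jacchus) at postnatal day 5, and the tissue was brain. The wild-type group has 2 libraries, and so has the group of mutants, whose FMR1 gene was altered with CRISPR/Cas9. The study's design describes forebrain samples that include cortex, striatum and hippocampus. The labels used here do not give the mutant allele, the sex of the animals, whether a mutant is mosaic, or whether each library is a separate animal. The p-values below therefore measure only the spread between these libraries, which may be technical. The fit estimates that spread largely from all genes together, and only in small part from each gene's own libraries.

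Fragile X syndrome is caused by loss of FMRP, the product of FMR1, which binds RNA and controls translation in neurons and glia. The comparison asked which transcripts differ between mutant and wild-type newborn forebrain. The libraries held between 12331639 and 13455702 counts. FMR1 itself was counted 966 to 1144 times in wild-type and 1062 to 1603 times in mutant libraries, so its RNA level does not check the genotype labels. A pair of libraries stood apart in genes of neighbouring tissue that were picked after their values were seen: the thalamic factor TCF7L2 had 1272 counts in wild-type replicate 1 against 118 to 139 elsewhere, and the choroid plexus protein TTR had 1244 counts in mutant replicate 1 against 8 to 89 elsewhere. For the members, and for calls that end, values without single libraries are given below. Neuronal markers summed to between 8747 and 9158 CPM (the count of a gene scaled by library size to a common total), with NEFL (log2 fold change -0.49) and GAD2 (-0.46) fallen and DCX (0.50) risen among 11 tested (edgeR adjusted p = 0.0151, 0.0352 and 0.0241). The shares over all genes tested were 1.57% called lower and 0.661% called higher (edgeR). None of these neuronal calls held whichever library was left out, and none held without mutant replicate 2. Without wild-type replicates 1 and 2 in turn, log2 fold changes were -0.33 and -0.63 for NEFL, -0.54 and -0.36 for GAD2, and 0.67 and 0.35 for DCX. In contrast, the 4 blood markers with a row summed to between 1.14 and 4.58 CPM.

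In the brain, cholesterol and phospholipid travel between cells on small lipoproteins that astrocytes and microglia assemble. The ATP-driven exporters ABCA1 and ABCG1 load lipid onto apolipoproteins, of which APOE and clusterin (CLU) are the main glial ones, and neurons take the particles up through receptors of the LDL receptor family. Astrocytes also release thrombospondins and SPARCL1 (hevin), which promote the formation of excitatory synapses, glypican-4 (GPC4), which draws AMPA receptors to young synapses, CHRDL1, a BMP antagonist that favours their maturation, and SPARC, which opposes hevin.

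The 9 genes did not move together. THBS1 was about 2 times as high in the mutant as in the wild-type libraries (fold 1.96), and CLU was 30.0% lower. The other 7 did not pass the test. Thus 1 of 9 rose and 1 of 9 fell. Of all genes tested, 2.23% were called in either direction (0.661% higher and 1.57% lower). The 9 were chosen with earlier results of these data known, so this and the shares below are a description and no test. At an unadjusted p under 0.05 there were 4 of the 9 (THBS1, CLU, SPARC and SPARCL1), against 13.4% of all genes. That set changed with the library left out: it had 6 members without mutant replicate 1, with APOE and ABCA1 added, and 5 without wild-type replicate 1, with ABCA1 and ABCG1 in and SPARC out. Without wild-type replicate 2 it had 5, with APOE added. Log2 fold changes, mutant over wild-type throughout, were negative for 7 of the 9 and had a median of -0.23. Over all genes tested 50.7% were negative and the median was -0.004. The mutant libraries lay wholly below the wild-type libraries for 4 members and wholly above them for 2, and the groups overlapped for 3. Groups that do not overlap were seen in 43.1% of all genes tested (21.8% with the mutant libraries lower and 21.4% with them higher), so that order alone sets no member apart.

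**Figure D1:**
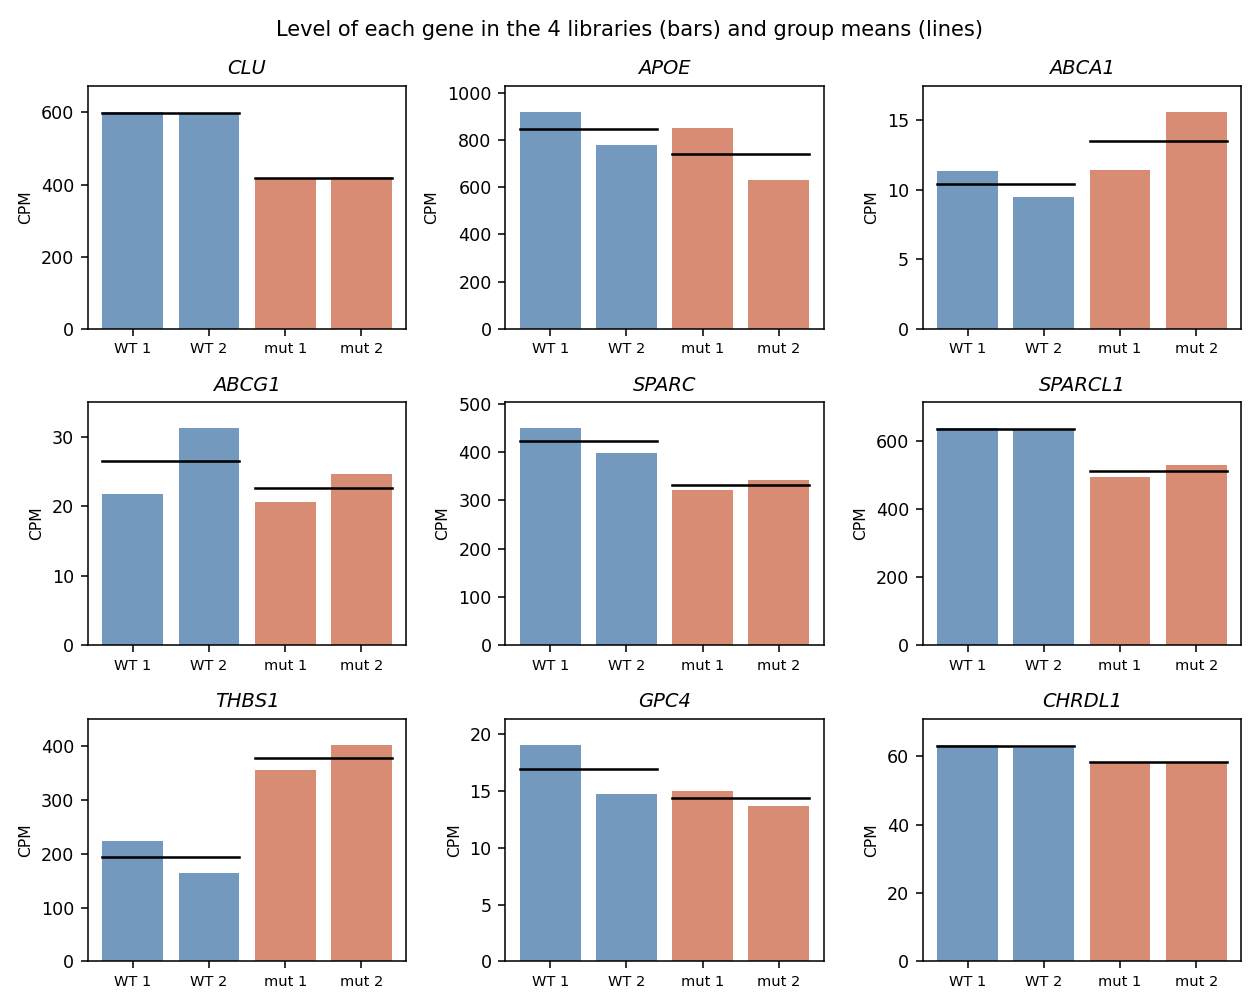
Level of each of the 9 genes in CPM (y axis, from 0, own scale per panel) in the 2 wild-type (WT, blue) and 2 mutant (mut, orange) libraries, with black lines at the group means. CLU stands near 599 CPM in both wild-type and near 419 CPM in both mutant libraries, and THBS1 is higher in both mutant libraries (355 and 403 CPM) than in both wild-type libraries (223 and 165 CPM).

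Among the lipoprotein components, clusterin changed most. CLU encodes a secreted chaperone that circulates on lipoprotein particles and is also named apolipoprotein J. Its level in CPM was 602 in replicate 1 and 596 in replicate 2 of the wild-type and 418 and 421 in the mutant libraries. Both mutant libraries were lower than both wild-type libraries, and the libraries of a group were nearly equal. The group means were 599 ± 3.69 CPM (SD, n = 2) and 419 ± 2.30 CPM (SD, n = 2), a log2 fold change of -0.51 (SE 0.11, 95% interval -0.74 to -0.29, Benjamini-Hochberg adjusted p = 0.00601 in edgeR's quasi-likelihood fit). By p-value CLU stood at place 107 among the genes with a negative fold change. It passed whichever library was left out, with log2 fold changes between -0.52 and -0.51 and edgeR adjusted p between 0.0275 and 0.0434. CLU is abundant in choroid plexus as well as in astrocytes. The library rich in TTR, mutant replicate 1, had the same CLU level as mutant replicate 2, and without it the log2 fold change was -0.51. What part choroid plexus RNA has in the CLU values was not tested. In bulk tissue, fewer cells of a type and less RNA per cell cannot be told apart.

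APOE encodes the other main apolipoprotein of the brain, made by astrocytes and microglia. It was at 921 and 779 CPM in the wild-type and 851 and 631 CPM in the mutant libraries, so the groups overlapped and replicate 1 was the higher library in each. The means were 849.7 ± 100.4 CPM (SD, n = 2) and 741 ± 156 CPM (SD, n = 2). The difference did not pass, at a log2 fold change of -0.20 (SE 0.13, 95% interval -0.47 to 0.07, edgeR adjusted p = 0.565). Leaving out mutant replicate 2 brought the log2 fold change to 0.005 (edgeR adjusted p = 0.994), and leaving out mutant replicate 1 to -0.43 (edgeR adjusted p = 0.125). Microglial markers, 12 genes in all, were lowest in mutant replicate 2, with sums of 193 and 207 CPM in wild-type and 157 and 108 CPM in mutant replicates 1 and 2. Of the 12, 3 fell and 0 rose (LAPTM5, CSF1R and CX3CR1), and without mutant replicate 2 the number by edgeR was 0 (3 lower at an unadjusted p under 0.05). There were 4 without mutant replicate 1. DESeq2 called 2, with CX3CR1 at an adjusted p of 0.0830, and in edgeR CX3CR1 missed the threshold if wild-type replicate 2 was dropped (adjusted p = 0.0735). The shares over all genes tested were 1.57% called lower and 0.661% called higher (edgeR). What part microglial RNA has in the APOE values was not tested.

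The ratio of APOE to CLU counts within a library does not depend on how libraries are scaled. It was 1.53 and 1.31 in the wild-type and 2.04 and 1.498 in the mutant libraries, so mutant replicate 2 fell between the wild-type libraries and only mutant replicate 1 was above both.

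Both lipid exporters were of low abundance and did not pass. ABCA1, which loads cholesterol and phospholipid onto lipid-poor apolipoproteins, had 150 and 116 counts in the wild-type and 149 and 210 counts in the mutant libraries. Counting error alone amounts to 9.28% of the lowest of these counts. In CPM the values were 11.3, 9.44, 11.4 and 15.6, so mutant replicate 1 barely exceeded wild-type replicate 1 and only mutant replicate 2 stood clearly higher. The log2 fold change was 0.38 (SE 0.21, 95% interval -0.06 to 0.81, edgeR adjusted p = 0.469), and 0.13 without mutant replicate 2. It was 0.58 without mutant replicate 1 (unadjusted p = 0.0312, edgeR adjusted p = 0.458) and 0.51 without wild-type replicate 1 (unadjusted p = 0.0471, edgeR adjusted p = 0.422). ABCG1, which adds cholesterol to particles already formed, was at 21.8 and 31.2 CPM in the wild-type and 20.5 and 24.6 CPM in the mutant libraries. The groups overlapped, and wild-type replicate 2 was the highest library. Its log2 fold change of -0.23 (SE 0.18, 95% interval -0.59 to 0.13, edgeR adjusted p = 0.631) became 0.05 without wild-type replicate 2 and -0.47 without wild-type replicate 1 (unadjusted p = 0.0180, edgeR adjusted p = 0.263). Both intervals include 0 as well as changes in either direction, so neither an effect nor its absence is shown at this depth and number of libraries.

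Among the secreted matrix and synapse proteins, thrombospondin-1 was the one that changed. THBS1 encodes a large trimeric glycoprotein that binds the calcium channel subunit alpha2delta-1 on neurons, activates latent TGF-beta and limits the growth of vessels. It was counted 2960 and 2021 times in the wild-type and 4653 and 5433 times in the mutant libraries, or 223, 165, 355 and 403 CPM. Both mutant libraries were well above both wild-type libraries, and the wild-type libraries differed from each other by 0.44 on the log2 scale against 0.18 between the mutant libraries. The means were 194 ± 41.5 CPM (SD, n = 2) and 379 ± 33.9 CPM (SD, n = 2), a log2 fold change of 0.97 (SE 0.13, 95% interval 0.70 to 1.24, edgeR adjusted p = 5.10e-05). By p-value it stood at place 7 among the genes with a positive fold change and at place 32 among all genes tested. It passed whichever library was left out. The log2 fold change was lowest, 0.77 (edgeR adjusted p = 3.04e-04), without wild-type replicate 2, and highest, 1.20, without wild-type replicate 1, and the largest adjusted p was 0.0174 (edgeR), without mutant replicate 2. All other fits passed as well, among them DESeq2 and limma-voom. Which cells hold the THBS1 RNA was not tested and cannot be told from bulk tissue.

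SPARC and SPARCL1 are related calcium-binding matricellular proteins with opposed actions on synapses, and their transcripts had similar values. SPARC, which is also made by endothelial cells, was at 449 and 398 CPM in the wild-type and 320.5 and 341 CPM in the mutant libraries. SPARCL1 was at 637 and 631 CPM in the wild-type and 493.9 and 529.6 CPM in the mutant libraries. For each gene both mutant libraries were lower than both wild-type libraries. The log2 fold change was -0.36 for SPARC (SE 0.11, 95% interval -0.59 to -0.13, unadjusted p = 0.00356, edgeR adjusted p = 0.0981) and -0.31 for SPARCL1 (SE 0.11, 95% interval -0.53 to -0.08, unadjusted p = 0.00871, edgeR adjusted p = 0.164). If wild-type replicate 1 was dropped, SPARC had -0.27 with an unadjusted p of 0.0831 (edgeR adjusted p = 0.530). Neither gene passed after adjustment over all genes in any of the 12 other fits, where the smallest adjusted p were 0.0699 for SPARC and 0.121 for SPARCL1 (over edgeR, limma-voom and DESeq2). Their ratio, in SPARC counts per SPARCL1 count, was 0.706 and 0.631 in the wild-type and 0.649 and 0.644 in the mutant libraries, so the mutant values lay between those of the wild-type libraries. The endothelial and pericyte markers did not pass in any of their 15 members (0 by edgeR, 2 at an unadjusted p under 0.05, 0 by DESeq2), with sums of 452 and 483 CPM in wild-type and 434 and 432 CPM in mutant libraries. With 2.23% of all genes tested called by edgeR, a list of this size without a call is no result about these markers. Their log2 fold changes were negative for 11 and positive for 4, with a median of -0.14 (-0.004 over all genes tested). The part of endothelial RNA in the SPARC values was not tested.

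GPC4 and CHRDL1 did not pass. GPC4 was counted 253 and 181 times in the wild-type and 197 and 185 times in the mutant libraries (19.1, 14.7, 15.0 and 13.7 CPM). The groups overlapped, and wild-type replicate 1 was the high library: its log2 fold change of -0.24 (SE 0.19, 95% interval -0.62 to 0.15, edgeR adjusted p = 0.658) was -0.04 without it. CHRDL1 was at 63.4 and 62.4 CPM in the wild-type and 58.2 and 58.1 CPM in the mutant libraries. The groups did not overlap because libraries of a group were almost equal, yet the difference was small (log2 fold change -0.11, SE 0.13, 95% interval -0.38 to 0.15, edgeR adjusted p = 0.778). Of the 9 genes it had the fold change nearest to 0.

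**Figure D2:**
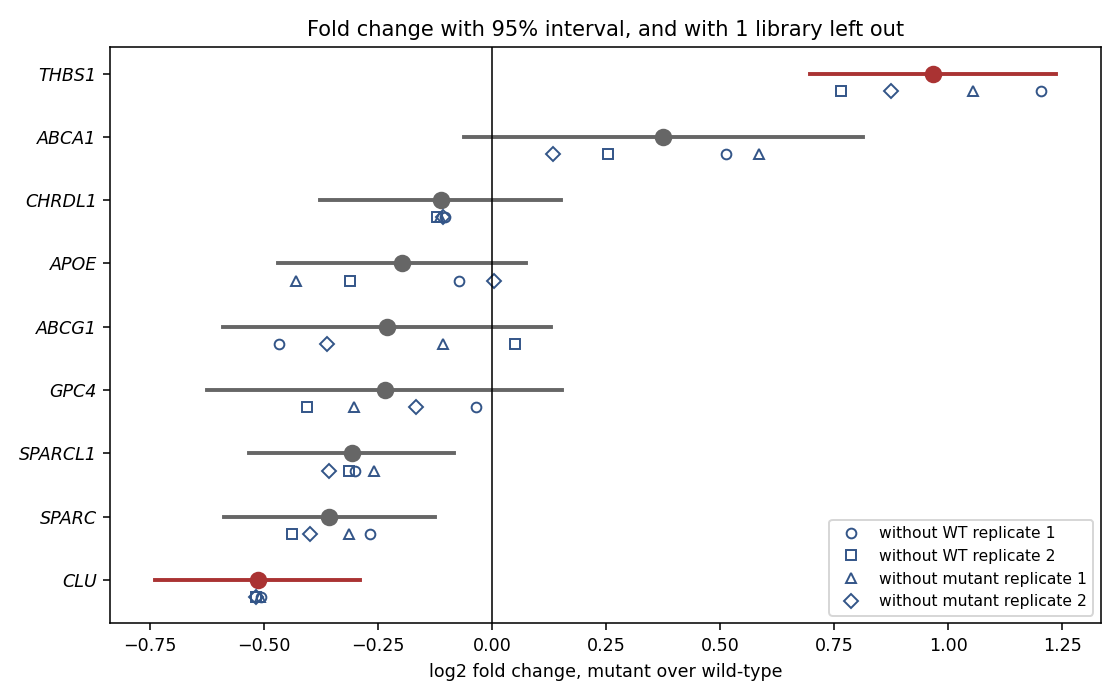
Log2 fold change of each gene, mutant over wild-type (x axis), with its 95% interval (filled circle and bar, red where the adjusted p is under 0.05), and below it the value with 1 library left out (open symbols). The open symbols of CLU lie on top of each other near -0.51, those of THBS1 run from 0.77 to 1.20, and those of APOE and ABCG1 reach past 0.

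THBS1 and CLU thus moved in opposite directions in the same libraries. For each CLU count there were 0.371 and 0.276 THBS1 counts in the wild-type libraries (replicate 1 first) and 0.850 and 0.957 in the mutant libraries. Against SPARC, the ratio was 0.497 and 0.413 in the wild-type and 1.11 and 1.18 in the mutant libraries. Both ratios were higher in each mutant library than in each wild-type library. That order follows from the levels already given, with THBS1 higher and CLU and SPARC lower in both mutant libraries, and adds no support. With 2 libraries a group, no exact permutation test of such a ratio can pass a threshold of 0.05, so the ratios are given as a description.

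**Figure D3:**
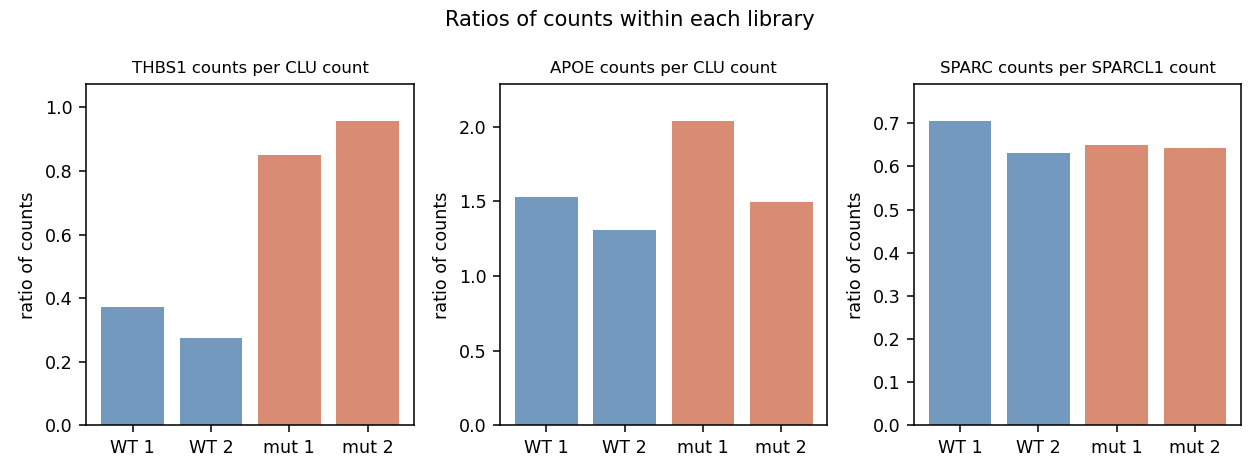
Ratios of counts within each library (y axis, from 0) for THBS1 to CLU, APOE to CLU and SPARC to SPARCL1, in wild-type (WT, blue) and mutant (mut, orange) libraries. The THBS1 to CLU ratio is 0.850 and 0.957 in the mutant against 0.371 and 0.276 in the wild-type libraries, while SPARC to SPARCL1 stays between 0.631 and 0.706 in all 4.

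The lower members were set beside 21 markers of astrocytes, although which cells hold their RNA was not measured here. Of these markers 2 fell and 0 rose, all 21 had a negative log2 fold change, and the median was -0.23. For this list and the radial glia list below, the shares over all genes tested were 1.57% called lower and 0.661% called higher (edgeR). Of all genes 50.7% were negative, and their median was -0.004. The glutamate transporter SLC1A2 (-0.61, edgeR adjusted p = 9.68e-04) passed whichever library was left out, while the sodium pump subunit ATP1B2 (-0.47, edgeR adjusted p = 0.0231) kept its call in just 1 of those 4 fits, that without wild-type replicate 2. Without wild-type replicate 2, 4 astrocyte markers fell, and 1 fell in each of the other 3 fits. The summed level of the list was 7754 and 7766 CPM in the wild-type and 6020 and 6247 CPM in the mutant libraries. Of 10 markers of radial glia, from which astrocytes arise, 1 rose (VIM, edgeR adjusted p = 0.0481, which kept its call in just 1 of those 4 fits, that without mutant replicate 2), 0 fell and the median was 0.04. VIM was not called by DESeq2 (adjusted p = 0.0746), by limma-voom (0.0527) or by edgeR without its robust option (0.0591). Each member's log2 CPM was then taken relative to the mean log2 CPM of the 21 astrocyte markers in the same library. That mean was itself lower in the mutant, at 7.34 and 7.36 in the wild-type and 7.09 and 7.07 in the mutant libraries (difference -0.27). Each member's relative difference is therefore raised by about as much. On this relative scale SPARC and SPARCL1 differed between groups by -0.08 and -0.03 (mutant minus wild-type mean), within the spread of their libraries, and SPARC turned to 0.02 without wild-type replicate 1 and SPARCL1 to 0.03 without mutant replicate 1. CLU remained lower, at 1.89 and 1.86 in the wild-type and 1.62 and 1.65 in the mutant libraries (difference -0.24). CHRDL1, whose own log2 fold change was -0.11, was higher by 0.16 on this scale only because the marker mean fell more. Its relative values were -1.35 and -1.40 in the wild-type and -1.22 and -1.20 in the mutant libraries. THBS1 was higher by 1.26 (own log2 fold change 0.97), with 0.46 and -0.0007 in the wild-type and 1.39 and 1.59 in the mutant libraries. ABCA1, which did not pass (own log2 fold change 0.38), was higher by 0.63. APOE, ABCG1 and GPC4 had differences of 0.07, 0.06 and 0.05, with overlapping groups. Those signs changed with the library left out: APOE was at -0.14 without mutant replicate 1, ABCG1 at -0.18 without wild-type replicate 1, and GPC4 at 0.25 and -0.14 without wild-type replicates 1 and 2 in turn. These relative values carry no test, and what part the lower astrocyte markers have in each member's change was not tested.

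**Figure D4:**
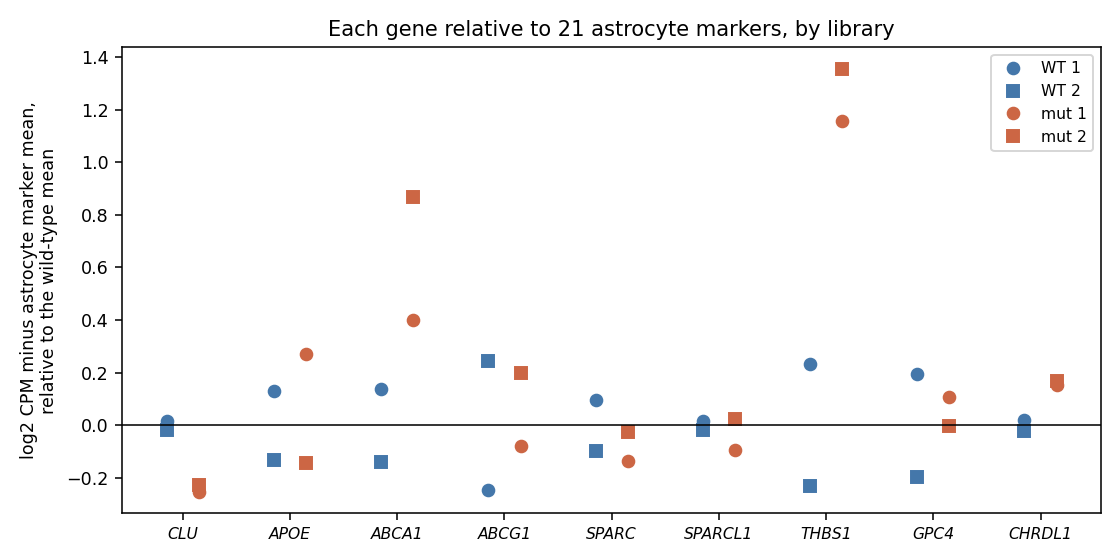
Log2 CPM of each gene minus the mean log2 CPM of 21 astrocyte markers in the same library, centred on the wild-type mean of the gene (y axis), for wild-type (WT, blue) and mutant (mut, orange) libraries. CLU lies about 0.24 below and THBS1 about 1.26 above its wild-type level on this relative scale, while SPARC and SPARCL1 stay near 0. The marker mean itself differs by -0.27 between the groups (mutant minus wild-type).

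Genes that carry, export and sense lipid beside these members are given next. Over all genes tested, 2.23% were called in either direction and 13.4% had an unadjusted p under 0.05 (edgeR). Lists of this size, here and below, would hold few or no calls at that share. Of 12 other apolipoproteins and lipid carriers tested, 0 passed by edgeR or DESeq2 (2 at an unadjusted p under 0.05, the mitochondrial APOOL and the transfer protein CETP), with a median log2 fold change of -0.06. Without wild-type replicate 1 neither of these was under 0.05 (0 of 12 genes), while the list median moved to -0.13 on leaving out mutant replicate 1 and to 0.06 on leaving out wild-type replicate 2. APOC1, which shares particles with APOE, was at 12.6 and 9.6 CPM in the wild-type and 13.4 and 5.7 CPM in the mutant libraries, and like APOE was lowest in mutant replicate 2. Of 20 other exporters and genes of intracellular sterol transport, 1 fell and 0 rose, 15 were negative, and the median was -0.20. It was ABCA2, a transporter rich in oligodendrocytes (-0.44, SE 0.12, edgeR adjusted p = 0.0421), which passed only without wild-type replicate 1 when 1 library was left out. Oligodendrocyte markers were lower in the same libraries, with 11 of 12 fallen, 0 risen and sums of 3669 and 3593 CPM against 1400 and 1347 CPM. Their part in the ABCA2 value was not tested.

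ABCA1 and ABCG1 are transcribed under the oxysterol-sensing LXR receptors. Of 16 LXR and RXR receptors and target genes, 0 passed by edgeR or DESeq2 (2 higher and 3 lower at an unadjusted p under 0.05), with a median of -0.09. These values depended on the library left out, with 2 higher and 0 lower at that threshold and a median of 0.03 without mutant replicate 1, and 0 higher and 2 lower without wild-type replicate 1. With no low-count filter, edgeR called 1 higher (NR1H2, adjusted p = 0.0437) and 1 lower. The receptor NR1H2 had values of 65.3 and 76.5 CPM in the wild-type and 99.6 and 90.6 CPM in the mutant libraries (log2 fold change 0.42, SE 0.13, edgeR adjusted p = 0.0751), and MYLIP, an LXR target that degrades lipoprotein receptors, had 31.6 and 32.3 against 43.6 and 39.5 CPM (0.38, SE 0.14, edgeR adjusted p = 0.200). SCD and RXRA of the same list had values of -0.55 and -0.38. The list thus held members on either side of 0, 6 positive and 10 negative.

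Receptors that take up APOE and CLU particles had mostly negative values without a call. Of 23 tested, 0 passed by edgeR or DESeq2 (1 higher and 4 lower at an unadjusted p under 0.05), 20 were negative and the median was -0.21 (-0.10 without mutant replicate 1). TREM2, the microglial receptor that binds APOE and CLU, was at 12.9 and 15.2 CPM in the wild-type and 10.4 and 6.4 CPM in the mutant libraries (-0.75, SE 0.23, edgeR adjusted p = 0.0854). It passed with no low-count filter (edgeR adjusted p = 0.0315), without wild-type replicate 1 (0.0380) and without mutant replicate 1 (-1.14, 0.0430). LRP1, the large endocytic receptor for APOE, had a log2 fold change of -0.26 (edgeR adjusted p = 0.282), and LRP8, a receptor for APOE and reelin, of -0.21 (edgeR adjusted p = 0.561). DAB1, the adaptor that carries reelin signals from LRP8 and VLDLR, had a positive value (0.38, SE 0.13, edgeR adjusted p = 0.114).

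No partner of THBS1 was called in the main fit. Over all genes tested only 0.661% were called higher and 13.4% had an unadjusted p under 0.05 (edgeR). A list of this size without a call is therefore no result about these genes. Of 16 other thrombospondins, receptors and TGF-beta genes tested, 0 passed by edgeR or DESeq2, 2 were lower at an unadjusted p under 0.05 (TGFB1 and ITGAV), and the median was -0.09. ITGAV was at -0.06 without wild-type replicate 1, and the median at -0.03 without mutant replicate 1. CACNA2D1, which encodes the neuronal receptor alpha2delta-1, was at 246 and 258 CPM in the wild-type and 234 and 272 CPM in the mutant libraries (log2 fold change 0.01, 95% interval -0.23 to 0.24). CD47, another THBS1 receptor, was at 483 and 475 against 502 and 551 CPM (0.14, 95% interval -0.09 to 0.36). THBS2, the other thrombospondin made by immature astrocytes, was near the limit of use at 3.6 and 5.2 against 3.1 and 4.4 CPM (-0.24, 95% interval -0.91 to 0.42), and THBS3 had -0.19 (95% interval -0.59 to 0.22). THBS4 had 0 to 4 and COMP 2 to 8 counts in any library and were not tested. TGFB1, which THBS1 activates as a protein, had a log2 fold change of -0.55 (SE 0.21, edgeR adjusted p = 0.186), and the matricellular CCN1 and CCN2 had 0.09 and -0.17.

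All 6 other members of the SPARC protein family had a negative log2 fold change, with a median of -0.28, and 1 of them passed. SPOCK1, which encodes the neuronal proteoglycan testican-1, was at 492 and 423 CPM in the wild-type and 311 and 335 CPM in the mutant libraries (-0.50, SE 0.12, edgeR adjusted p = 0.0115). It did not pass without wild-type replicate 1 (edgeR adjusted p = 0.209) or mutant replicate 1 (0.103). SPOCK2 and SMOC1 each had values of -0.31 (edgeR adjusted p = 0.174 and 0.222), and FSTL1 of -0.05. Among 16 other glypicans, their receptors and the pentraxin and AMPA receptor genes that GPC4 acts through, 1 fell and 0 rose, with a median of -0.13 (-0.04 without mutant replicate 1). It was NPTX1, the neuronal pentraxin that gathers AMPA receptors (126 and 168 against 90.2 and 109 CPM, -0.56, SE 0.14, edgeR adjusted p = 0.0243), which passed only without wild-type replicate 1 when 1 library was left out. The list had 3 fallers with no low-count filter or with the replicate number as a block, 2 in edgeR without its robust option, and 0 without mutant replicate 1 or 2 (3 and 2 lower at an unadjusted p under 0.05). GPC6, the closest functional relative of GPC4, had a value of -0.36 (95% interval -0.73 to 0.01), and the GPC4 receptor PTPRS of -0.12 (95% interval -0.34 to 0.10). The AMPA receptor subunit genes GRIA1 and GRIA2 had 0.13 and 0.003.

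CHRDL1 binds BMP4 and related ligands. Of 25 BMP ligands, antagonists, receptors and targets, 0 passed by edgeR or DESeq2 (1 higher and 2 lower at an unadjusted p under 0.05), and the median was -0.01. The BMP-induced ID2 had values of 199.9 and 211 against 284 and 249 CPM (0.37, SE 0.12, edgeR adjusted p = 0.0868). BMP4 itself was at 1.51, 0.57, 0.92 and 1.26 CPM, wild-type libraries first.

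Of 24 other secreted astrocyte proteins tested, 2 fell and 0 rose, 20 were negative, and the median was -0.16. TIMP3, a matrix-bound inhibitor of metalloproteinases, was at 104 and 87.8 CPM in the wild-type and 62.3 and 62.1 CPM in the mutant libraries (-0.62, SE 0.13, edgeR adjusted p = 0.00409). SERPINE2, or glia-derived nexin, an inhibitor of thrombin, was at 179 and 155 against 117 and 107 CPM (-0.58, SE 0.12, edgeR adjusted p = 0.00478). Neither passed without wild-type replicate 1 (edgeR adjusted p = 0.0833 and 0.0937), and SERPINE2 did not without mutant replicate 2 (0.0624). Single libraries also added edgeR calls: without wild-type replicate 2 there was 1 riser among the other apolipoproteins, 1 riser and 1 faller in the LXR list, 1 faller in the thrombospondin list and 2 risers and 1 faller in the BMP list, and without mutant replicate 1 there were 2 fallers among the lipoprotein receptors. Without mutant replicate 2 the LXR list had 1 faller, and without wild-type replicate 1 the lipoprotein receptors had 1 and the sterol exporters and glypicans 2 each.

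**Figure D5:**
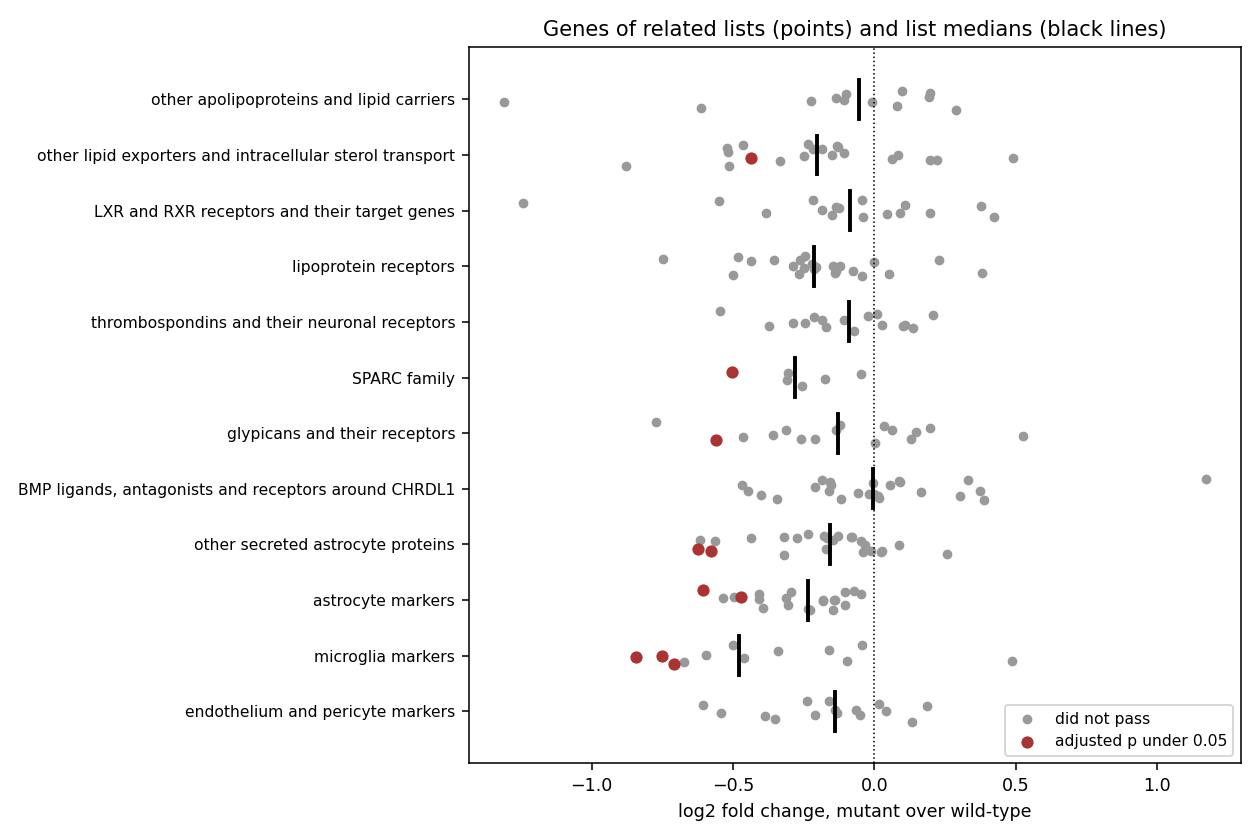
Log2 fold change, mutant over wild-type (x axis), of each tested gene in the lists around the 9 members and in 3 marker lists (points, red where the adjusted p is under 0.05, vertical scatter only for legibility), with the list median as a black line. Most medians lie between -0.28 and 0, with the microglial markers at -0.48, and every red point is on the negative side.

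Genes whose pattern over the 4 libraries was most like that of the changed members were looked up among 10261 genes with a symbol and a mean of at least 10 CPM. Likeness was the root mean square difference of log2 CPM after centring each gene, so it rests on 4 points shared with the group comparison itself. Nearest to CLU were PPP1R16B (difference 0.01), NRXN3 (0.01) and ADCYAP1 (0.02), with log2 fold changes of -0.50, -0.51 and -0.50. Of these ADCYAP1 did not pass (edgeR adjusted p = 0.0266, 0.0132 and 0.185 in turn). Nearest to THBS1 were the alpha-tubulin TUBA1C (0.15), the G protein subunit GNG8 (0.15) and the small GTPase RERG (0.16), with log2 fold changes of 0.89, 0.77 and 0.84. Here GNG8 did not pass (edgeR adjusted p = 3.37e-05, 0.0554 and 0.00143 in turn).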

How the data were processed

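Per the labels' protocols, brain RNA (TRIzol, with DNase I treatment) was enriched for poly(A) and sequenced from strand-keeping libraries. Trimmomatic 0.38 and STAR 2.7.10a are named in the submitters' processing notes. The counting tool, build and annotation were not given in the sources used here. Raw, unscaled counts per gene were deposited by the authors for 4 libraries. Columns were assigned by the library name in the labels.

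The fit used edgeR 4.0.16 in R 4.3.3: filterByExpr (minimum count 10), TMM scaling, quasi-likelihood test with robust = TRUE, Benjamini-Hochberg adjustment over 16956 genes, threshold 0.05. Every adjusted p without another tool's name is from this test. The SE is the size of the log2 fold change divided by the square root of F. It rests mostly on the spread shared over genes (median prior degrees of freedom 31.6, against 2 residual). SEs and intervals are thus not the spread of 1 gene's own libraries. The script was first tested on simulated data with known changes. Alternatives were RLE and upper quartile scaling, DESeq2 1.42.0, limma-voom (limma 3.58.1), other filters, robust = FALSE, the replicate number as a block, and each library left out with the same genes tested; the arm left with 1 library is then assumed to vary like the other.

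The 9 members and all lists were chosen with earlier results of these data known. In each list the genes past the threshold were named (up to 4, smallest p first), or else the 2 with the smallest p; 1 gene that this rule takes is not reported here. Genes named beyond that, such as receptors and paralogs of a member, were added after their values were seen. The genes most alike were the 3 nearest per changed member. Log2 CPM used a prior count of 2. CPM is not scaled for transcript length, so levels are compared between libraries and not between genes. Coordinates and sequences are not used here.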

Additional observations from a re-analysis of the deposited data

How the results depend on the processing

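Of 108 values (9 members under 12 alternatives), 106 kept their direction and their side of the threshold. The exceptions were 2 changes of sign, neither past the threshold. The log2 fold change of APOE ran from -0.43 to 0.005 when 1 library was left out, positive only without mutant replicate 2, and that of ABCG1 from -0.47 to 0.051, positive only without wild-type replicate 2. CLU and THBS1 passed under all 12, with log2 fold changes of -0.52 to -0.51 and 0.77 to 1.20 and adjusted p of 1.17e-04 to 0.0434 and 2.65e-13 to 0.0174 (edgeR, limma-voom or DESeq2). The number of genes changed was 378. It was 633 with no low-count filter, which tests more genes, and 244 by DESeq2, which also ran on other genes. It ran from 163 to 562 with 1 library left out, with 163 in the fit that drops mutant replicate 1 (139 of these were among the 378) and 220 in the fit that drops mutant replicate 2. The cause was not tested. Of the marker genes, CLIC6 (choroid plexus) ran from -0.050 to 1.57 and ALAS2 (blood) from -0.15 to 1.58, negative only without mutant replicate 1. The labels used here do not say whether same-numbered libraries share more than a number. Their deviations from the group means correlated at r = 0.03, which cannot settle whether they share a batch. With the replicate block 493 genes changed, with CLU at -0.51 (adjusted p = 0.00487) and THBS1 at 0.98 (adjusted p = 1.09e-05), and no member changed its call. The block took the fallers among the glypicans and their receptors from 1 to 3. Depth limits ABCA1, ABCG1 and GPC4 most, with 116 to 383 counts a library. Counting error covers only part of the spread between libraries.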
